A study of Homo sapiens with 2 samples.

Results

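Autophagosome formation is carried out by a small set of proteins that act in a fixed order, and the transcripts of 40 such genes were followed here in 2 RNA-seq libraries of HCT116, a widely used line of human colorectal cancer cells. The genes were chosen by name from the known steps of the pathway, and all 40 were found in the deposited table, 1 row each, out of 28615 gene symbols. The first library is labelled as an SRD5A1 knockdown and carries the tag Dox, and the second is labelled as a control and carries the tag KD. How the knockdown was made, what the tags stand for, and whether both cultures carry the same construct or received the same treatment are points that the sources used here do not give. SRD5A1 encodes steroid 5-alpha reductase type 1, and the comparison asks how transcript levels differ when it is lowered. There was 1 library per group, so no test was possible, the spread between cultures is unknown, and every difference describes these 2 libraries.

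Autophagy delivers cytoplasm to the lysosome. A kinase complex built around ULK1 starts the process when nutrient signals fall, a lipid kinase complex then marks a membrane with phosphatidylinositol 3-phosphate, and lipid transfer proteins expand it into a cup. A pair of ubiquitin-like conjugation systems attaches ATG8 proteins (the LC3 and GABARAP subfamilies) to the growing membrane, where they bind receptors that carry the cargo. The pathway runs at a basal rate in epithelial cells and is known for its response to starvation and to stress of the endoplasmic reticulum.

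The knockdown library held 54740670 counts and the control library 41814981. SRD5A1 was at 6.25 FPKM in the knockdown library (3119 counts) and at 10.8 FPKM in the control library (4101 counts), where FPKM counts fragments relative to transcript length and library size. Of 9 markers of colorectal epithelium in the table, 7 had a mean of at least 1 FPKM, and KRT20 and VIL1 were below that. CDX2 reached that mean through the knockdown library alone, at 7.00 FPKM there and 0.767 FPKM in the control library. KRT18 was at 345.6 FPKM in the knockdown and 74.5 FPKM in the control library. EPCAM (30.2 and 39.7 FPKM in the same order) and CLDN7 (62.4 and 110.6 FPKM) were lower in the knockdown library. Of the 12 markers of leukocytes, fibroblasts, endothelium and adipocytes in the table, CD68 (1.28 FPKM in the knockdown and 7.79 FPKM in the control library) and COL1A1 (2.39 and 4.02 FPKM in the same order) reached that mean. PTPRC had 0.0063 FPKM in the knockdown library and was listed at 0 in the control library, and CD3E, DCN and CDH5 were listed at 0 in both. In bulk RNA, fewer cells of a type and less RNA per cell cannot be told apart. The part of these transcripts in the differences below was not tested.

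The sequences of the genes that stood furthest apart are given first. MAP1LC3B and MAP1LC3B2, which encode near-identical LC3 proteins, differ at 2 of 375 coding bases (99.5% identity) in GENCODE release 29. The longest identical stretch is 307 bases, and 208 of the 276 possible stretches of 100 coding bases are the same in both genes. Reads from these stretches cannot be assigned by sequence, so the level of MAP1LC3B2 in particular is uncertain. Counted from 1 at the first base of the start codon, with the MAP1LC3B base first, the differences are C30G and A338G. They are shown as 41 coding bases around each, with the differing base in capitals. The first MAP1LC3B stretch crosses an exon junction and has its differing base at chr16 position 87392457. The others lie at chr12:116575952-116575992, chr16:87403037-87403077 and chr12:116576260-116576300 (GRCh38, plus strand).
MAP1LC3B, coding bases 10 to 50: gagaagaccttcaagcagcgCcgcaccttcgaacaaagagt
MAP1LC3B2, coding bases 10 to 50: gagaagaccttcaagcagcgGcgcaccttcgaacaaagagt
MAP1LC3B, coding bases 318 to 358: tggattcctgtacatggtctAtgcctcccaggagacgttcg
MAP1LC3B2, coding bases 318 to 358: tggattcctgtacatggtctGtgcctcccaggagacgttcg

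Promoter sequence is shown for ATG12, MAP1LC3B and ATG101, the genes other than MAP1LC3B2 whose level was lower by 2-fold or more in the knockdown library. Each line is the 250 bases before the RefSeq start (GRCh38.p14), written 5′ to 3′ on the gene's strand, at chr5:115841566-115841815 (minus strand), chr16:87392086-87392335 (plus strand) and chr12:52069728-52069977 (plus strand). Capitals mark matches to TGACNNNGC, the element that binds NRF2. The windows searched ran from 250 bases before to 50 after the start, on both strands.
ATG12: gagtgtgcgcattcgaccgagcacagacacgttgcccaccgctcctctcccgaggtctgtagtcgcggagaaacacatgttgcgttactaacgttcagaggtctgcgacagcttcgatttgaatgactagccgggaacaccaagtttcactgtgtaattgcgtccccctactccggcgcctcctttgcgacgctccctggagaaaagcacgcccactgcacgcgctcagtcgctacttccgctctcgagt
MAP1LC3B: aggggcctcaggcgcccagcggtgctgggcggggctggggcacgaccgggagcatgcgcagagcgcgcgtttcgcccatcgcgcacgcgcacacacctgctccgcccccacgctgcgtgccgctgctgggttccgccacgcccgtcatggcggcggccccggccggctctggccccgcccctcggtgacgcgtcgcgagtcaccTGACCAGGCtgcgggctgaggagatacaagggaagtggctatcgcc
ATG101: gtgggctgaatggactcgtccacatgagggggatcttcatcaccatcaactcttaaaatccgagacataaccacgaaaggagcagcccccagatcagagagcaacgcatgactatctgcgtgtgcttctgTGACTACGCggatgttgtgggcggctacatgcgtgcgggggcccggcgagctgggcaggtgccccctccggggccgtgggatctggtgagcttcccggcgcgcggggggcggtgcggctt

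Of the 40 genes, 35 had a RefSeq promoter that was searched, in 44 windows. TGACNNNGC was found in 3 of the 44 windows (ATG101, MAP1LC3B and CALCOCO2), and in 13.3% of all 35116 promoters of the table. CACGTG, the core of the element bound by TFEB and TFE3, was found in 2 windows (ATG3, with matches at both -18 and 5 bases from the start, and ATG14) and in 7.26% of all promoters. TGATGNAA, the element bound by ATF4 with C/EBP proteins, was found in 1 window (WDR45) and in 3.62% of all promoters. A match is a description of the letters, and binding of factors was not measured.

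Of the 40 genes, 30 had a mean of at least 1 FPKM over both libraries and are called expressed below. Differences are knockdown minus control values of log2(FPKM + 1), and a size of 1 or more is called 2-fold. By this measure 1 expressed member was 2-fold higher in the knockdown library and 4 were 2-fold lower. Over all 10143 expressed genes the shares were 20.9% higher and 6.83% lower, against 3.33% and 13.3% of the expressed members. At the smaller step of 0.5, 5 members were higher and 8 lower, and 17 lay between. The matching shares over all expressed genes were 40.8% higher and 16.3% lower. The median over the expressed members was -0.07, and the median over all expressed genes 0.30. Of the 30 expressed members, 18 were below 0, and of all 10143 expressed genes, 3620 were below 0. The 4 lower members were ATG12, MAP1LC3B, MAP1LC3B2 and ATG101, and the 1 higher member was ATG7. MAP1LC3B2 is counted here as a member, but it is near-identical to MAP1LC3B in coding sequence and is no separate measurement.

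These counts moved with the scaling between the libraries. Setting the median ratio to 1 shifted the median of all genes by -0.30, the upper quartile by -0.32, and TMM (a trimmed mean of ratios that allows for composition) by -0.21. The split of members at 2-fold was then 0 higher and 6 lower with the median ratio and with the upper quartile, and 0 higher and 5 lower with TMM, against 1 and 4 as deposited. With the median ratio, 13.1% of all expressed genes were called 2-fold higher and 11.6% lower. With the upper quartile the shares were 12.7% higher and 11.9% lower, and with TMM 15.2% higher and 9.66% lower. ATG12, MAP1LC3B, MAP1LC3B2 and ATG101 were 2-fold lower under each of these scalings. ATG7 was higher under all of them, by less than 2-fold. At the step of 0.5 the counts moved further, to 1 member higher and 12 lower with the median ratio, where the shares over all expressed genes were 27.8% higher and 26.7% lower. With the upper quartile 1 member was higher and 13 were lower (27.3% and 27.4% of all expressed genes), and with TMM 1 was higher and 9 were lower (31.5% and 22.8%).

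**Figure D1:**
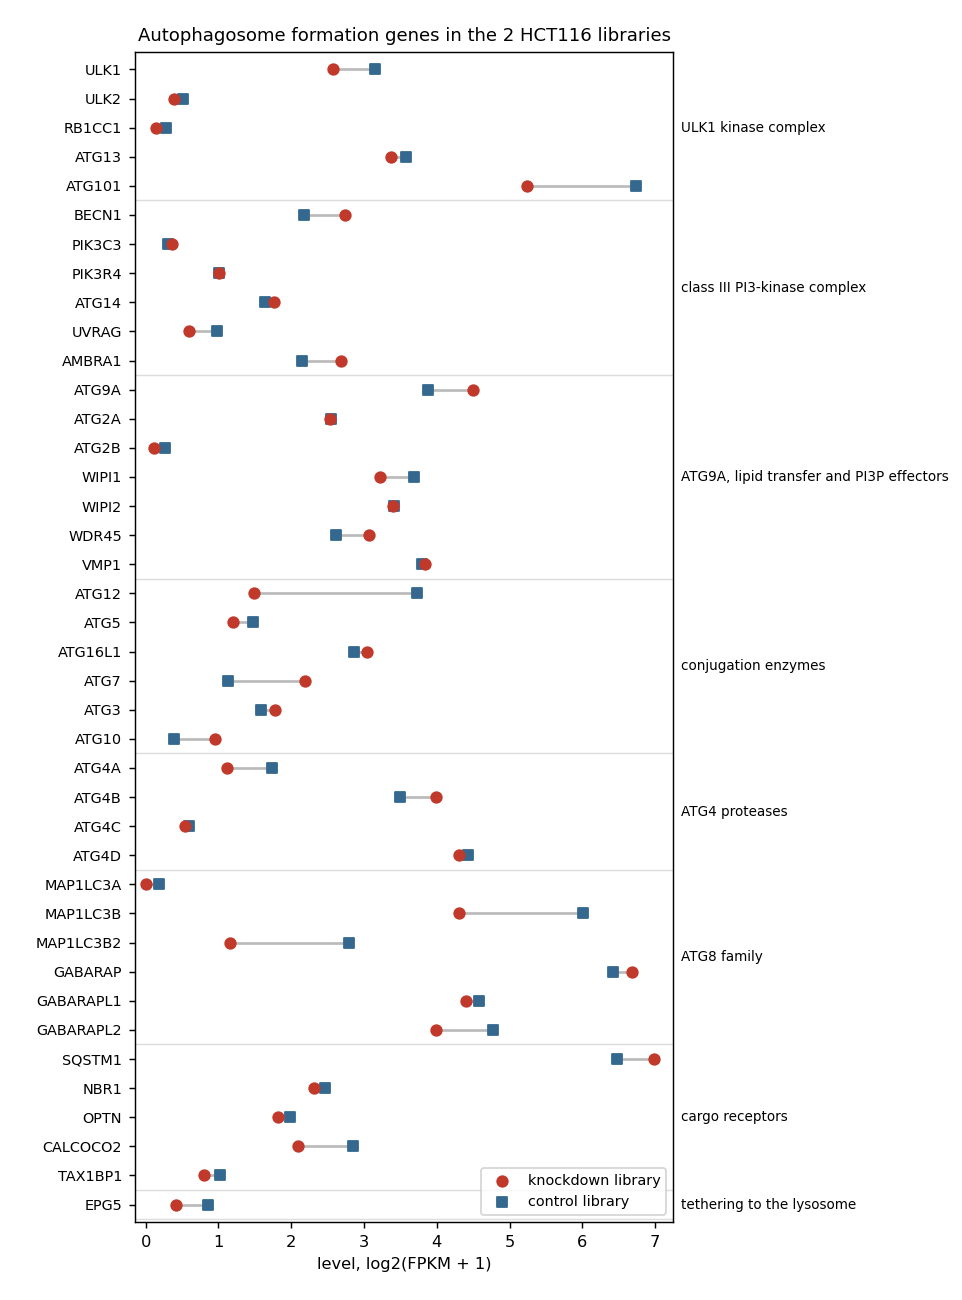
Level of each of the 40 genes, as log2(FPKM + 1), in the knockdown library (red circles) and the control library (blue squares), grouped by step, with a grey line joining the 2 values. The longest lines are those of ATG12, MAP1LC3B, MAP1LC3B2 and ATG101, with the knockdown value on the left, while most other pairs lie close together.

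The ULK1 kinase complex starts autophagosome formation. ATG101 stabilises ATG13 within it. Its level was 36.7 FPKM (7666 counts) in the knockdown library and 105.7 FPKM (16876 counts) in the control library. The difference was -1.50, and the ratio of CPM (counts scaled to 1000000 per library) was 0.347, with an exact 95% counting interval of 0.338 to 0.357. Of the expressed genes, 3.32% had a difference as low or lower. ATG101 lies on chromosome 12 (52069246 to 52077494, plus strand), has 4 exons in its principal transcript, and overlaps an antisense transcript that was listed at 0 in both libraries.

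The other expressed subunits differed less. ULK1, the kinase that starts the pathway, was at 4.97 FPKM in the knockdown library and 7.90 FPKM in the control library, a difference of -0.58. ATG13, the scaffold that links the kinase to its partners, was at 9.31 FPKM in the knockdown and 10.9 FPKM in the control library (-0.21). ATG101 transcripts were therefore 3.94 times as abundant per length as ATG13 transcripts in the knockdown library and 9.68 times as abundant in the control library, a ratio that scaling between libraries does not touch. ULK2, the related kinase, and RB1CC1, the large scaffold also called FIP200, were not expressed by the threshold. ULK2 was at 0.315 FPKM in the knockdown and 0.431 FPKM in the control library, and RB1CC1 at 0.103 and 0.218 FPKM in the same order.

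The class III phosphatidylinositol 3-kinase complex makes the lipid that marks the site of formation. None of its 4 expressed members was 2-fold apart, and their median was 0.33. BECN1, the regulatory subunit that binds BCL2 proteins, was at 5.68 FPKM in the knockdown library and 3.50 FPKM in the control library (0.57). AMBRA1, a BECN1-binding regulator, was at 5.45 FPKM in the knockdown and 3.43 FPKM in the control library (0.54). Both stayed above 0 in all 9 alternatives, with lowest values of 0.24 and 0.22. On the opposite strand, PSME3 overlaps 4.68% of the exon bases of BECN1, and CNTD1 overlaps 12.4%. PSME3 was at 12.2 FPKM in the knockdown and 1.95 FPKM in the control library, and CNTD1 at 0.281 and 0.253 FPKM in the same order. The part of shared reads in the BECN1 value was not tested. ATG14, which directs the complex to autophagosomes, was at 2.40 FPKM in the knockdown and 2.13 FPKM in the control library (0.12, turning below 0 with the median ratio, the upper quartile and TMM). PIK3R4, the myristoylated kinase-like subunit, was at 1.01 against 1.02 FPKM in knockdown and control (-0.002). The lipid kinase itself, PIK3C3, and UVRAG, which forms the endosomal version of the complex, were not expressed by the threshold. PIK3C3 was at 0.287 FPKM in the knockdown and 0.239 FPKM in the control library. UVRAG was at 0.515 FPKM in the knockdown and 0.981 FPKM in the control library.

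Membrane supply and lipid transfer depend on ATG9A, a scramblase carried in vesicles, on the ATG2 lipid transfer proteins, and on WIPI proteins that read the lipid mark. None of the 6 expressed genes of this step was 2-fold apart, and their median was 0.01. ATG9A was at 21.7 FPKM in the knockdown library and 13.7 FPKM in the control library (0.63, and above 0 in all 9 alternatives). Its exons overlap AC068946.2 on the same strand over 38.8% of their bases. That gene was at 0.352 FPKM in the knockdown and 0.189 FPKM in the control library. WDR45, also called WIPI4, was at 7.38 FPKM in the knockdown and 5.12 FPKM in the control library (0.45). WIPI1 went the other way, at 8.32 FPKM in the knockdown and 11.9 FPKM in the control library (-0.47). PRAF2 overlaps 13.9% of the exon bases of WDR45 on the same strand. It was at 33.9 FPKM in the knockdown and 36.9 FPKM in the control library. ARSG overlaps 24.3% of the exon bases of WIPI1 on the opposite strand, and was at 3.02 and 1.65 FPKM in the same order. The part of shared reads in the WDR45 and WIPI1 values was not tested.

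Levels of the remaining genes of this step lay close together. WIPI2, which recruits ATG16L1 to the membrane, was at 9.50 FPKM in the knockdown and 9.60 FPKM in the control library (-0.01). ATG2A was at 4.77 FPKM in the knockdown and 4.83 FPKM in the control library (-0.01), and its relative ATG2B was not expressed, at 0.081 and 0.202 FPKM in the same order. VMP1, a scramblase of the endoplasmic reticulum, was at 13.3 FPKM in the knockdown and 12.9 FPKM in the control library (0.04, below 0 with the median ratio, the upper quartile and TMM).

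The conjugation enzymes held both the lowest and the highest difference among the expressed members. ATG12 is the ubiquitin-like protein that is joined to ATG5 and then, with ATG16L1, directs lipidation of ATG8 proteins. It was at 1.81 FPKM (1050 counts) in the knockdown library and 12.2 FPKM (5404 counts) in the control library. The difference was -2.23, the CPM ratio 0.148 (0.139 to 0.159), and 1.02% of the expressed genes had a difference as low or lower. Over the 9 alternatives the difference ranged from -2.69 to -1.98. In the knockdown library its level was 17.3% of the way up the ranked expressed genes, and in the control library 76.5%.

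ATG12 lies on chromosome 5 (115828200 to 115841565 as deposited, minus strand). Its RefSeq start is 381 bases from that of AP3S1, an adaptor complex subunit read in the other direction. The annotated exons of the 2 genes overlap over 378 bases, or 4.25% of the exon bases of ATG12, and the sources used here do not say whether strand was used in counting. AP3S1 was also lower, at 18.2 FPKM in the knockdown library and 43.1 FPKM in the control library, a difference of -1.20. The part of shared reads in either value was not tested.

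ATG7 activates both ATG12 and the ATG8 proteins. Its level was 3.56 FPKM (2058 counts) in the knockdown library and 1.19 FPKM (530 counts) in the control library. The difference was 1.06 and the CPM ratio 2.97 (2.69 to 3.27), and 19.0% of the expressed genes had a difference as high or higher. It lies on chromosome 3 (11272309 to 11557665, plus strand), and 18.1% of its exon bases overlap VGLL4 on the opposite strand, which was at 8.14 FPKM in the knockdown and 5.19 FPKM in the control library.

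The partners of these enzymes were less far apart. ATG5 was at 1.30 FPKM in the knockdown library and 1.79 FPKM in the control library (-0.28). ATG16L1 was at 7.22 FPKM in the knockdown and 6.25 FPKM in the control library (0.18, below 0 with the median ratio, the upper quartile and TMM). ATG12 transcripts were 1.39 times as abundant per length as ATG5 transcripts in the knockdown library and 6.82 times as abundant in the control library. Relative to ATG16L1 the abundance was 0.250 in the knockdown library and 1.95 in the control library, so the order of ATG12 and ATG16L1 differed between the libraries. ATG3, which passes ATG8 proteins on to lipid, was at 2.42 FPKM in the knockdown and 1.99 FPKM in the control library (0.19, below 0 with the median ratio and the upper quartile). ATG10, which passes ATG12 on to ATG5, was below the threshold, at 0.935 FPKM (336 counts) in the knockdown and 0.314 FPKM (87 counts) in the control library.

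The ATG4 proteases trim ATG8 precursors and release ATG8 proteins from membranes. None of the 3 expressed proteases was 2-fold apart. ATG4A was at 1.18 FPKM in the knockdown library and 2.34 FPKM in the control library (-0.62). ATG4B, the main protease of this family, was at 14.9 FPKM in the knockdown and 10.3 FPKM in the control library (0.495). That is short of the step of 0.5, which ATG4B passed with a pseudocount of 0.1 and in CPM (0.53 in both). ATG4D was at 18.7 FPKM in the knockdown and 20.6 FPKM in the control library (-0.13). KRI1 overlaps 15.0% of the exon bases of ATG4D on the opposite strand. It was at 11.9 FPKM in the knockdown and 4.30 FPKM in the control library, and the part of shared reads was not tested. ATG4C was below the threshold, at 0.461 FPKM in the knockdown and 0.518 FPKM in the control library.

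**Figure D2:**
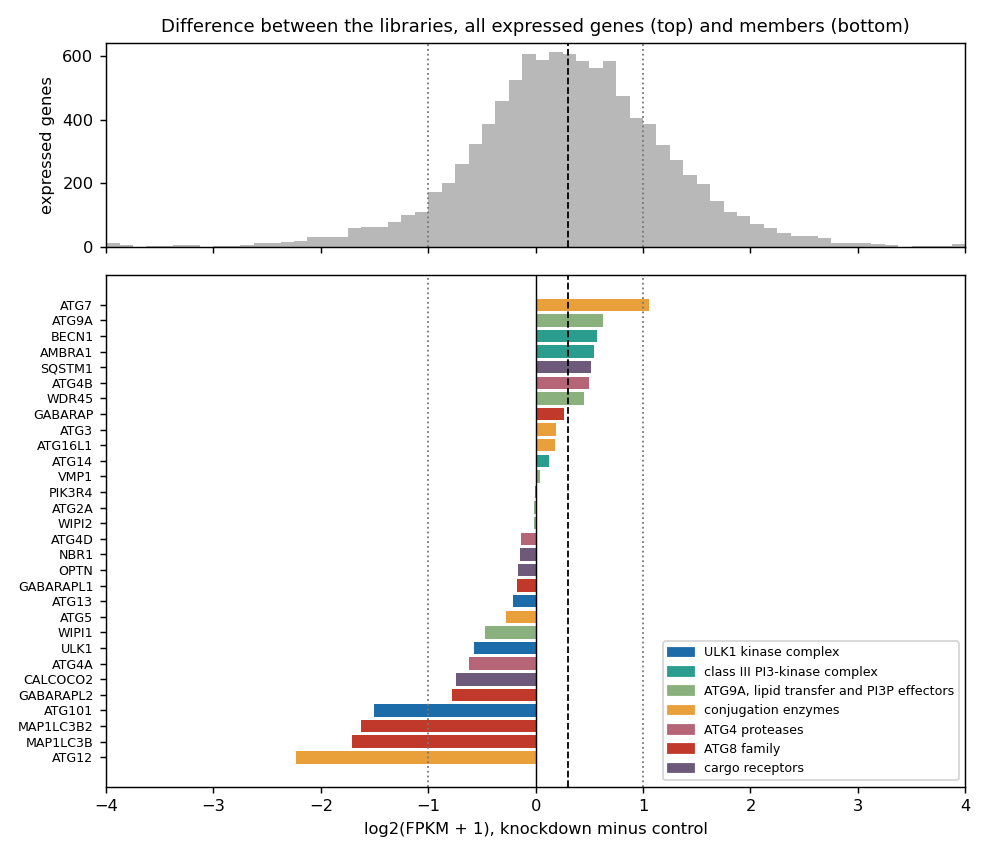
Difference in log2(FPKM + 1), knockdown minus control, for all 10143 expressed genes (top, histogram of gene counts, values beyond 4 in size drawn at the edge) and for the 30 expressed members (bottom, bars coloured by step). The dashed line is the median of all expressed genes (0.30) and dotted lines mark 2-fold; 4 bars pass the lower line and 1 bar passes the upper line.

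In the ATG8 family the LC3 and GABARAP subfamilies differed by unlike amounts. MAP1LC3B, the LC3 protein used to follow autophagosomes, was at 18.7 FPKM (6163 counts) in the knockdown library and 63.4 FPKM (15937 counts) in the control library. The difference was -1.71 and the CPM ratio 0.295 (0.287 to 0.304), and 2.26% of the expressed genes had a difference as low or lower. The gene lies on chromosome 16 (87383953 to 87404779, plus strand). It shares 150 exon bases (2.82%) with FBXO31 on the opposite strand, which was at 11.0 FPKM in the knockdown and 12.6 FPKM in the control library.

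MAP1LC3B2 was at 1.24 FPKM (156 counts) in the knockdown library and 5.92 FPKM (567 counts) in the control library. The difference was -1.63 and the CPM ratio 0.210 (0.175 to 0.251). Because 2 coding bases separate it from MAP1LC3B, as shown in the sequences above, its value is uncertain and is no second measurement of LC3. MAP1LC3A had 0 counts in the knockdown library and 8 counts (0.131 FPKM) in the control library. With 0 counts, a level of up to 3 counts (0.0548 CPM in the knockdown library) is still possible.

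The GABARAP subfamily acts mainly late in autophagosome closure and in binding the ULK1 complex. GABARAP was at 102.1 FPKM (13013 counts) in the knockdown library and 84.6 FPKM (8238 counts) in the control library. The difference was 0.27 and the CPM ratio 1.21 (1.17 to 1.24); with the median ratio and the upper quartile the difference turned below 0. Its exons overlap the same-strand gene AC120057.2 over 30.5% of their bases, and that gene had 0 counts in the knockdown and 489 counts in the control library. The part of this overlap in the GABARAP value was not tested.

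GABARAPL1 was at 20.1 FPKM (5316 counts) in the knockdown library and 22.8 FPKM (4617 counts) in the control library, with a CPM ratio of 0.880 (0.845 to 0.915). GABARAPL2, also called GATE-16, was at 14.9 FPKM (2927 counts) in the knockdown and 26.2 FPKM (3939 counts) in the control library. Its difference was -0.78 and its CPM ratio 0.568 (0.541 to 0.596), and it was 2-fold lower with the median ratio, the upper quartile and TMM. Between GABARAP and GABARAPL1, 76.6% of aligned coding bases are identical, far fewer than between MAP1LC3B and MAP1LC3B2.

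The makeup of the family therefore differed between the libraries. Summed over the 6 genes, the family was at 157.0 FPKM in the knockdown library and 203.1 FPKM in the control library. The LC3 subfamily took 12.7% of that sum in the knockdown library and 34.2% in the control library. MAP1LC3B alone took 11.9% in the knockdown library and 31.2% in the control library, and GABARAP 65.0% in the knockdown library and 41.7% in the control library. By counts the LC3 share was 22.9% (22.4% to 23.4%, exact 95% interval) in the knockdown library and 49.6% (49.0% to 50.1%) in the control library. These shares are taken within a library and do not move with the scaling between libraries. GABARAP was 5.45 times as abundant per length as MAP1LC3B in the knockdown library and 1.33 times as abundant in the control library.

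**Figure D3:**
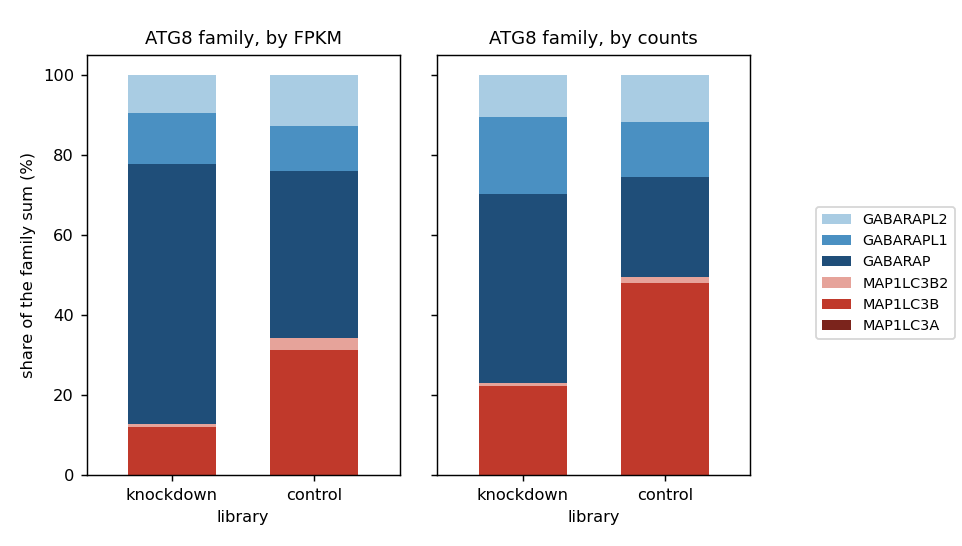
Share of each gene in the summed level of the ATG8 family (%), by FPKM on the left and by counts on the right, with the knockdown bar left of the control bar in each panel. The red segments, the LC3 subfamily, take 12.7% of the knockdown bar and 34.2% of the control bar by FPKM; by counts they take 22.9% of the knockdown bar and 49.6% of the control bar.

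Cargo receptors link ubiquitinated or other cargo to ATG8 proteins, and none of the 4 that were expressed was 2-fold apart. SQSTM1, also called p62, had the highest FPKM of the 40 genes in the knockdown library and the next highest after ATG101 in the control library, at 125.5 FPKM (61790 counts) in the knockdown and 87.6 FPKM (32936 counts) in the control library. The difference was 0.51 and the CPM ratio 1.43 (1.41 to 1.45); it stayed above 0 in all 9 alternatives, at 0.12 with the upper quartile. Its exons overlap MRNIP on the opposite strand over 20.7% of their bases, and MRNIP was at 2.64 FPKM in the knockdown and 0.537 FPKM in the control library. SQSTM1 was 6.70 times as abundant per length as MAP1LC3B in the knockdown library and 1.38 times as abundant in the control library.

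CALCOCO2, also called NDP52, a receptor for bacteria and mitochondria, was at 3.29 FPKM (1799 counts) in the knockdown library and 6.19 FPKM (2580 counts) in the control library. Its difference was -0.75 and its CPM ratio 0.533 (0.501 to 0.566), and it was 2-fold lower with the median ratio and the upper quartile. NBR1, a partner of SQSTM1, was at 3.99 FPKM (2194 counts) in the knockdown and 4.53 FPKM (1900 counts) in the control library, with a CPM ratio of 0.882 (0.829 to 0.938). OPTN, a receptor for damaged mitochondria, was at 2.54 FPKM (856 counts) in the knockdown and 2.97 FPKM (767 counts) in the control library, with a CPM ratio of 0.853 (0.772 to 0.941). SQSTM1 was thus the one expressed receptor with a higher level in the knockdown library.

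TAX1BP1, a receptor that also carries aggregates, and EPG5, which tethers autophagosomes to lysosomes, were below the threshold. TAX1BP1 was at 0.748 FPKM (450 counts) in the knockdown and 1.04 FPKM (477 counts) in the control library, with a CPM ratio of 0.721 (0.632 to 0.821). EPG5 was at 0.330 FPKM in the knockdown and 0.818 FPKM in the control library.

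GC content was looked at because it can bear on how well a transcript is recovered. Over 10139 expressed genes with an annotated transcript, the difference had a Spearman rho of 0.15 with the GC content of the longest transcript. Genes of at most 40% GC had a median difference of 0.03, and genes above 60% GC had one of 0.40. Among the 5 members that were 2-fold apart, the principal transcripts of ATG12 (37.5% GC), MAP1LC3B (48.7%), ATG7 (50.8%), MAP1LC3B2 (51.2%) and ATG101 (59.8%) span much of the range. With the trend over GC and length removed, the same 5 genes were 2-fold apart, with ATG12 at -1.98, MAP1LC3B at -1.79 and ATG7 at 1.004.

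**Figure D4:**
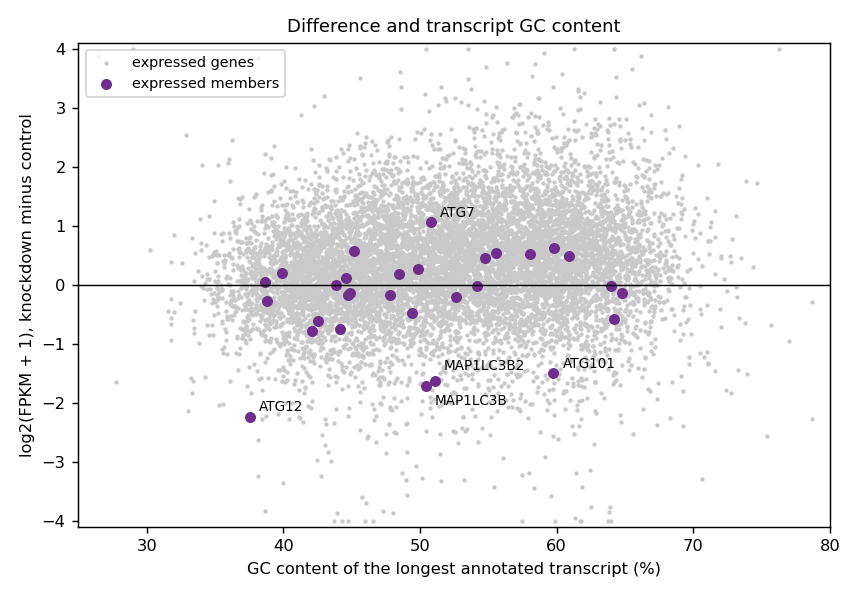
Difference in log2(FPKM + 1), knockdown minus control, against the GC content (%) of the longest annotated transcript, for expressed genes (grey, values beyond 4 in size drawn at the edge) and the 30 expressed members (purple). ATG12 lies at the low end of GC content, while ATG101, also lower in the knockdown library, lies near 60%.

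Other genes of the pathway were taken from 6 lists of 101 genes in all, of which 76 were expressed. Of these, 9 (11.8%) were 2-fold higher and 5 (6.58%) 2-fold lower in the knockdown library, and their median was 0.15. The lists were set beside the 20.9% and 6.83% of all expressed genes and are descriptions only.

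Upstream of the ULK1 complex, mTORC1 holds autophagy back when amino acids are plentiful. Of 22 expressed genes of mTORC1 and its nutrient inputs, 3 were 2-fold higher and 2 lower, with a median of 0.35. With the median ratio, the upper quartile and TMM the counts were 2 higher and 4 lower, and the median was -0.01, -0.03 and 0.10. RPTOR, the subunit that recruits substrates, was at 9.12 FPKM in the knockdown library and 1.65 FPKM in the control library (1.93). RRAGA, a GTPase that brings mTORC1 to the lysosome, was at 34.2 FPKM in the knockdown and 12.1 FPKM in the control library (1.42). CASTOR2, a relative of the arginine sensor CASTOR1, went the other way, at 1.91 FPKM in the knockdown and 6.18 FPKM in the control library (-1.30).

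AMPK activates ULK1 when energy is low, and 0 of its 7 expressed list members were 2-fold apart (median 0.06). The median was -0.29 with the median ratio, -0.30 with the upper quartile and -0.18 with TMM. The upstream kinase CAMKK2 was at 8.46 FPKM in the knockdown library and 3.84 FPKM in the control library (0.97), and the AMPK subunit PRKAB1 at 5.19 FPKM in the knockdown and 2.58 FPKM in the control library (0.79). CAMKK2 was 2-fold higher with a pseudocount of 0.1 (1.12) and in CPM (1.11). CAB39, a partner of the AMPK-activating kinase STK11, was at 2.55 FPKM in the knockdown and 4.90 FPKM in the control library (-0.73), and was 2-fold lower with the median ratio (-1.02) and the upper quartile (-1.04).

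Among 9 expressed transcription factors linked to autophagy genes, 2 were 2-fold higher and 3 lower, with a median of 0.31 (0.06 with the median ratio, 0.05 with the upper quartile and 0.14 with TMM). E2F1, a factor of the cell cycle, was at 14.9 FPKM in the knockdown library and 1.79 FPKM in the control library (2.51). DDIT3, the stress factor CHOP, was at 21.6 FPKM in the knockdown and 189 FPKM in the control library (-3.07). DDIT3 overlaps MARS over 27.2% and MBD6 over 4.44% of its exon bases, both on the opposite strand, so its value is uncertain if strand was not used. MARS was at 51.2 FPKM in the knockdown and 15.3 FPKM in the control library, and MBD6 at 2.73 and 31.8 FPKM in the same order. The part of shared reads in the DDIT3 value was not tested. RPTOR, RRAGA, E2F1 and DDIT3 kept their sign and stayed 2-fold apart in all 9 alternatives. CASTOR2 did too, except that it dropped out of the count at a mean of at least 5 FPKM. That left 1 gene of the mTORC1 list 2-fold lower.

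Genes of later or selective steps differed in both directions. Of 13 expressed genes of fusion with the lysosome, 2 were 2-fold higher and 0 lower, with a median of 0.39. The median was 0.07 with the median ratio, 0.05 with the upper quartile and 0.17 with TMM. VAMP8, a lysosomal SNARE, was at 67.1 FPKM in the knockdown library and 25.4 FPKM in the control library (1.36), and VPS33A, a subunit of the HOPS tether, at 3.51 FPKM in the knockdown and 0.878 FPKM in the control library (1.26). With the median ratio and the upper quartile VAMP8 was short of 2-fold (0.995 and 0.978), which left 1 gene higher. VPS33A shares 21.5% of its exon bases with another gene on the same strand, so its value is uncertain. It counted as expressed through its knockdown level alone. VPS39, also a HOPS subunit, was at 4.71 FPKM in the knockdown and 2.502 FPKM in the control library (0.70). The SNARE YKT6 was at 65.7 FPKM in the knockdown and 94.5 FPKM in the control library (-0.52).

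Of 13 expressed organelle receptors and mitophagy genes, 1 was 2-fold higher and 0 lower, with a median of 0.18. The median was -0.20 with the median ratio, -0.22 with the upper quartile and -0.08 with TMM. TEX264, a receptor for the endoplasmic reticulum, was at 13.7 FPKM (5111 counts) in the knockdown library and 0.708 FPKM (202 counts) in the control library (3.11). TEX264 counted as expressed through its knockdown level alone. BCL2L13, a mitochondrial receptor, was at 6.30 FPKM in the knockdown and 2.77 FPKM in the control library (0.95). The count of genes 2-fold higher was 2 with a pseudocount of 0.1, in CPM and with the trend over GC and length removed. PINK1, the kinase that marks damaged mitochondria, was at 13.0 FPKM in the knockdown and 25.7 FPKM in the control library (-0.94), and 39.4% of its exon bases overlap its antisense transcript. PINK1 was 2-fold lower with the median ratio (-1.29), the upper quartile (-1.31), TMM (-1.18) and the trend over GC and length removed (-1.05).

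Of 12 expressed further initiation factors and paralogues, 1 was 2-fold higher and 0 lower, with a median of -0.12. The counts were 0 higher and 3 lower with the median ratio and the upper quartile, and 1 higher and 3 lower with TMM, with medians of -0.42, -0.44 and -0.32. A count of 1 lower was reached with a pseudocount of 0.1, in CPM and with the trend over GC and length removed. Of all expressed genes, 9.93%, 8.02% and 6.43% were 2-fold lower under these settings, in the same order. BCL2L1, which binds BECN1, was at 67.7 FPKM in the knockdown library and 27.3 FPKM in the control library (1.28), and 43.0% of its exon bases overlap an antisense transcript. It was short of 2-fold with the median ratio (0.91) and the upper quartile (0.89). TMEM41B, a scramblase that acts with VMP1, was at 2.27 FPKM in the knockdown and 5.53 FPKM in the control library (-0.998, short of 2-fold). DAPK3, a kinase of the death-associated family, was at 15.8 FPKM in the knockdown and 29.9 FPKM in the control library (-0.88).

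**Figure D5:**
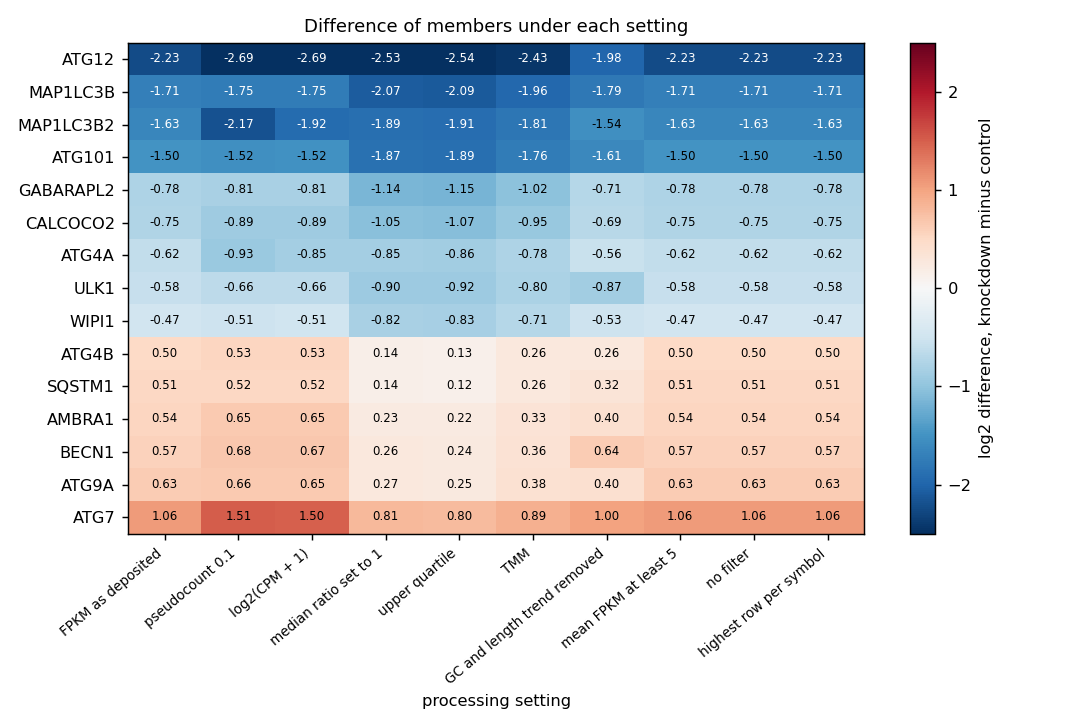
Difference on the log2 scale, knockdown minus control, of 15 members (rows, from the lowest to the highest) under each processing setting (columns), with blue for lower and red for higher in the knockdown library. The 4 top rows stay at -1.50 or lower in every column, and the bottom row, ATG7, lies between 0.80 and 1.51.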

How the data were processed

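Poly(A) RNA from 1 HCT116 sample per group was sequenced as paired ends, per the labels' protocols, which also speak of an adipose type. The submitters' processing notes name Bowtie 0.12.2, HISAT2 2.0 and StringTie 1.3.0, with no role or order, and the mouse build mm8. The table holds human Ensembl identifiers, and 69.3% of the rows found in GENCODE release 29 have the same position there, so GRCh38 positions are printed. Of the 40 members, 19 have the same position there. Gene spans are printed as deposited, while exon counts, exon overlaps and GC content follow GENCODE release 29. The authors deposited FPKM values, scaled to the library total. The authors also deposited raw counts per gene; the sources used here do not give the counting program or the use of strand.

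Columns were matched to samples by the tags in the titles. Rows were summed by symbol. Differences used log2(FPKM + 1), a pseudocount of 1 that understates differences of weakly expressed genes, with a filter at a mean of 1 FPKM. Intervals of CPM ratios are exact Clopper-Pearson 95% intervals and cover counting error only. Levels were named for every member, counts and CPM ratios for members 2-fold apart, the ATG8 family and cargo receptors, and from each further list the 3 largest differences plus the largest in the other direction. From the list of transcription factors, 1 gene that this rule names is not reported here. The members, lists and steps were chosen with earlier results of these data known. Promoters of ATG4D, EPG5, MAP1LC3A, RB1CC1 and UVRAG were not searched, and protein sequences were not used here. Steps were tested on simulated counts. Python 3.11.15, pandas 2.3.3, scipy 1.17.1 and biopython 1.88 were used.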

Additional observations from a re-analysis of the deposited data

How the results depend on the processing

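With 1 library per group, no difference has a replicate check and no replicate could be left out. No paired analysis was possible because each group had 1 library and no test was run. Each value was recomputed in 9 alternatives, and 24 of the 30 expressed members kept their sign in all of them; PIK3R4 turned sign with the GC and length trend removed (0.11), and ATG14, ATG16L1, ATG3, GABARAP and VMP1 with a scaling. The filter at a mean of 5 FPKM, no filter, and taking the highest row per symbol left each member's difference unchanged. Only the other alternatives could turn a sign. ATG12, MAP1LC3B and ATG101 were 2-fold lower in all 9. MAP1LC3B2 was too, except that it dropped out of the count at a mean of at least 5 FPKM. ATG7 was 2-fold higher in 6 of 9, although below the stricter filter. These 6 include the alternatives that left its difference unchanged.

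The count of members 2-fold higher moved to 0 with the median ratio, the upper quartile, TMM and a mean of at least 5 FPKM. Members higher by 0.5 or more numbered 1 with the median ratio, the upper quartile and TMM, and 2 at 5 FPKM and after removing the trend over GC and length. Members lower by 0.5 or more numbered 13 with the upper quartile and 5 at 5 FPKM, where 17 members were left. At 5 FPKM, 22.4% of the 5068 genes left were 2-fold higher and 6.81% lower. At the step of 0.5, 42.1% of these genes were higher and 15.7% lower. With the trend over GC and length removed, 39.9% of all expressed genes were higher by 0.5 or more and 15.9% lower. The median over members was -0.40 with the median ratio, -0.42 with the upper quartile and -0.30 with TMM. In CPM the LC3 share of the ATG8 family was 22.9% in the knockdown library and 49.6% in the control library, because CPM is not divided by length.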

Other observations

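The deposited table also carries a pathway annotation, in which 120 symbols are assigned to autophagy in animals, 30 of the members among them. Over the other 90 symbols, 65 were expressed. Of these, 7 (10.8%) were 2-fold higher and 4 (6.15%) 2-fold lower in the knockdown library, with a median difference of -0.004 in log2(FPKM + 1), against 20.9%, 6.83% and 0.30 over all expressed genes.

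Together the 40 members took 0.291% of the counts in the knockdown library and 0.318% in the control library. The ULK1 kinase complex took 0.0268% in the knockdown library and 0.0574% in the control library, most of it ATG101, and the cargo receptors 0.123% in the knockdown library and 0.0925% in the control library, most of it SQSTM1.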
